A study of Homo sapiens with 4 samples.

Results

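The mitochondrial ribosomal proteins were taken as all protein-coding genes whose symbol begins with MRPL or MRPS followed by a digit, after the Ensembl identifiers of the count files were matched without version to GENCODE 29. The rule gave 78 genes of the 60483 identifiers in the files and of the 19645 identifiers matched to a protein-coding gene. MRPL marks the large subunit (49 genes) and MRPS the small subunit (29 genes). They lie on 21 chromosomes, and all 78 had enough counts to be tested.

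RNA was sequenced from C4-2, an established human prostate cancer cell line, in 4 libraries. C4-2-ENZ was the phenotype labelled as resistant to enzalutamide, a drug that blocks the androgen receptor (2 libraries), and C4-2-CON was the control (2 libraries). The cells were kept for 1 month with the drug or without it, and no vehicle is named for the control. Resistance and the presence of the drug therefore cannot be told apart. All groups share the line and a serum-containing RPMI medium, and the growth protocol also names FGF-2 and an expansion medium without saying which cells received them. Whether the replicates were separate cultures or clones is not stated. Every p-value thus reflects only the spread between these 4 libraries, with each gene's spread drawn toward that of all genes tested. That spread may be technical. In bulk RNA, fewer cells of a type and less RNA per cell cannot be told apart.

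Mitochondria translate the few messages of their own genome, all for subunits of the respiratory chain and the ATP synthase, on a dedicated ribosome. Its small subunit binds the mRNA and reads codons, and its large subunit joins amino acids and passes the new chain to the inner membrane. The ribosomal RNA is transcribed from mitochondrial DNA, whereas every ribosomal protein is encoded in the nucleus, made in the cytosol and imported, some having bacterial counterparts and others being found in mitochondria only.

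Gene counts summed to 45033885 and 39047453 in C4-2-ENZ and to 25589724 and 29866008 in C4-2-CON. Records that did not align made up 20.3 to 20.7% of all records in C4-2-ENZ, against 34.2 to 37.0% in C4-2-CON; the part of this gap in the results was not tested. Summed levels of 9 luminal prostate markers, in CPM (counts scaled to library size and composition), were 6396 to 6432 in C4-2-ENZ and 4448 to 4575 in C4-2-CON, with none at 0. Marker sums of other cell types were low in both groups. Those of 5 fibroblast genes were 6.95 to 7.13 CPM in C4-2-ENZ and 7.93 to 9.69 CPM in C4-2-CON (COL1A2 at 0), and those of 3 endothelial genes 2.75 to 3.09 CPM in C4-2-ENZ and 4.24 to 4.66 CPM in C4-2-CON. Sums of 4 leukocyte genes were 0.145 CPM in both C4-2-ENZ libraries and 0.214 to 0.252 CPM in C4-2-CON (CD3E at 0), and those of 4 neural stem cell genes 1.23 to 1.31 CPM in C4-2-ENZ and 1.30 to 1.71 CPM in C4-2-CON. The part of these cells in the results was not tested.

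Transcripts of the mitochondrial ribosomal proteins were lower in C4-2-ENZ than in C4-2-CON across most of the set. Together they held 0.470% and 0.462% of gene counts in the C4-2-ENZ libraries, against 0.668% and 0.689% in the C4-2-CON libraries. Of the 78 genes, 65 were called lower, 2 were called higher and 11 were not called, where a call is an edgeR quasi-likelihood p below 0.05 after Benjamini-Hochberg adjustment over 20325 genes. Calls were common in this comparison: 31.7% of all genes tested were called lower and 33.0% higher, and among protein-coding genes the shares were 31.4% and 42.3%. The median log2 fold change (C4-2-ENZ over C4-2-CON) was -0.63 for the 78 genes, against -0.02 for all genes and 0.09 for protein-coding genes. A fall of at least 2-fold was called for 22 of the 78 genes, while 10.1% of all genes met that rule, and no member was called higher by that much.

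The 80 tested genes of the cytosolic ribosome, which makes all other cellular proteins, had 75 called lower and 1 called higher, with a median log2 fold change of -0.84. Over all genes tested, those shares were 31.7% and 33.0%. Lower transcript levels were thus seen for most protein genes of both ribosomes, and protein was not measured.

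Transcripts of both subunits were mostly lower, with the larger median fall in the large subunit. Of the 49 MRPL genes, 44 were called lower and 1 higher (median log2 fold change -0.82), and of the 29 MRPS genes, 21 were called lower and 1 higher (median -0.49). Falls of at least 2-fold were called in 18 MRPL and 4 MRPS genes. Summed over the MRPL genes, the level was 2678 and 2652 CPM in C4-2-ENZ, against 4477 and 4608 CPM in C4-2-CON, which is 1.70-fold higher in C4-2-CON. Summed over the MRPS genes, it was 1710 and 1702 CPM in C4-2-ENZ, against 2688 and 2723 CPM in C4-2-CON, which is 1.59-fold higher in C4-2-CON. Neither sum overlapped between the groups.

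The ratio of the large to the small sum within a library, which no scaling of the library can change, was 1.566 and 1.558 in C4-2-ENZ, against 1.665 and 1.692 in C4-2-CON. Means were 1.562 ± 0.00584 in C4-2-ENZ and 1.679 ± 0.0189 in C4-2-CON (SD, n = 2 each), and the gap was larger than the spread within either pair. An exact two-sided permutation test of 2 against 2 libraries cannot give a p below 0.333, so the ratio was not tested. Assigning proteins by their place in the ribosome's structure moves MRPS30 and MRPS18A to the large subunit and leaves out MRPS36, which is now known as a part of the 2-oxoglutarate dehydrogenase complex. With that assignment the ratio was 1.760 and 1.763 in C4-2-ENZ and 1.823 and 1.841 in C4-2-CON, so the groups still did not overlap but lay closer together.

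**Figure D1:**
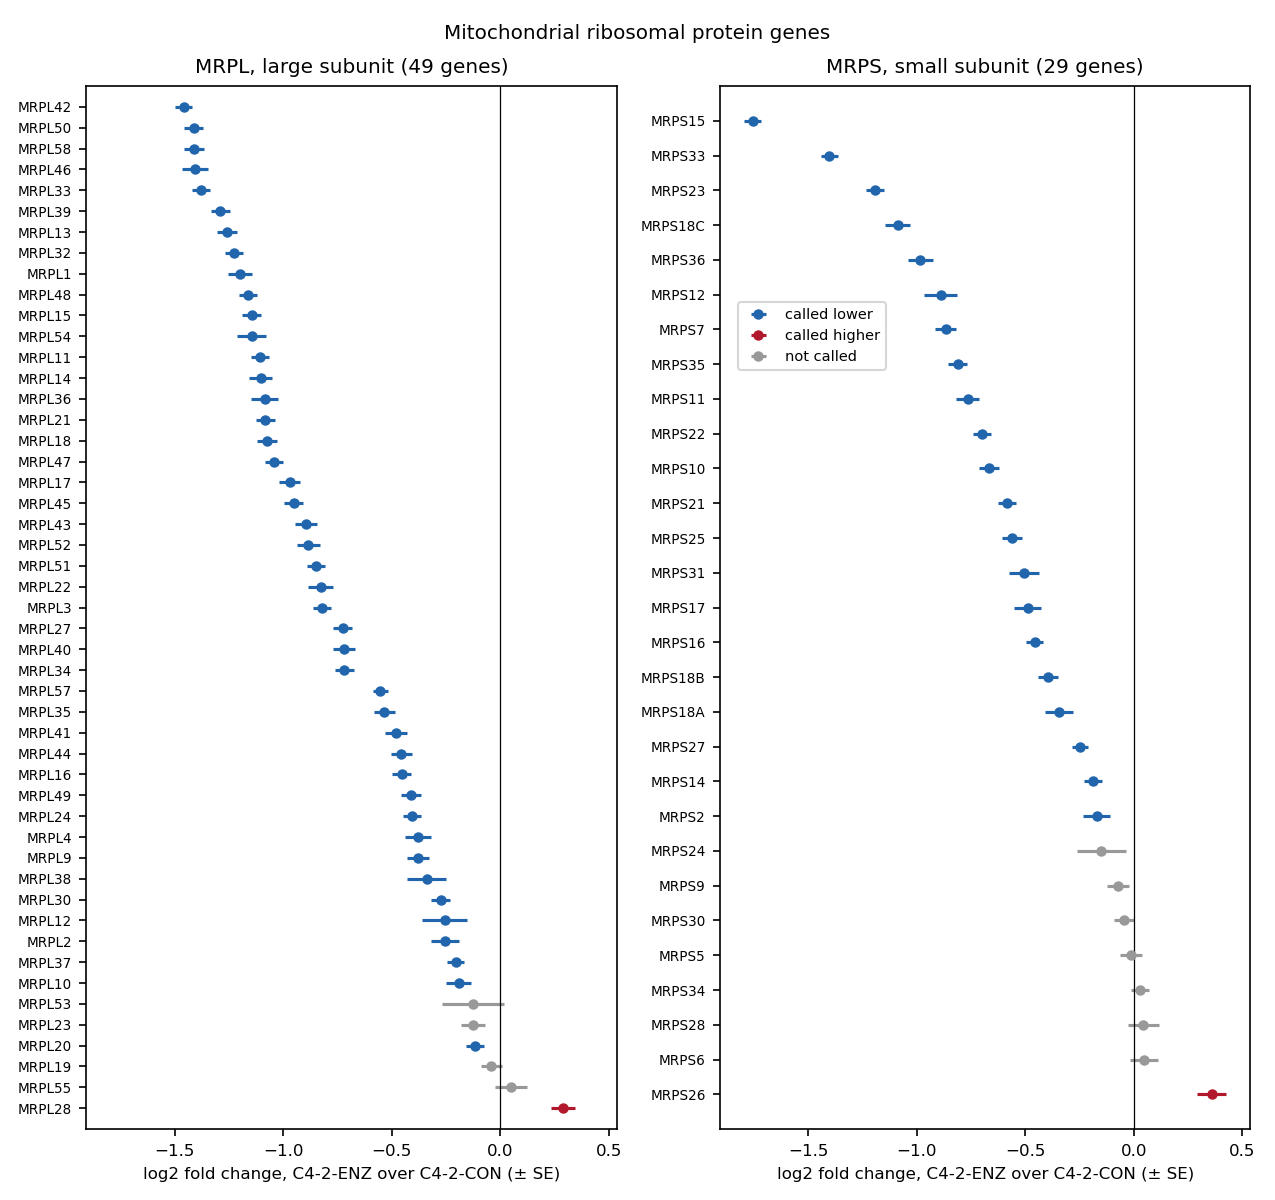
Log2 fold change of each of the 78 genes, C4-2-ENZ over C4-2-CON, with its standard error, ordered within the large (MRPL) and the small (MRPS) subunit and coloured by call. Most genes lie below 0 in both subunits, and MRPL28 and MRPS26 are the 2 called higher.

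Promoters of the set held the YY1 motif more often than promoters at large. Windows from 250 bases before to 50 after the start of a gene were available for 70 of the 78 genes from RefSeq (GRCh38.p14), and 3 motifs were searched on both strands. The letters AAGATGGC, the core bound by YY1, were present in 20 of 70 windows (28.6%), against 3.03% of all 27305 windows and 3.91% of 15843 protein-coding ones. The ETS-type letters CCGGAAGT, as bound by GABP, were in 11 windows (15.7%), against 4.44% of all and 6.19% of protein-coding windows. The NRF1 core GCGCATGCG, which is nearly its own reverse complement so that hits on both strands overlap, was in 3 windows (4.29%), against 2.10% and 2.76%. A match is a string of letters and not a measured binding site.

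The YY1 letters sat after the transcription start in 15 of the 20 genes, with their first base 6 to 35 bases beyond it, and in 12 of the 20 the ATG inside them coincided with a start codon annotated in GENCODE 29. The windows below show this shared core, in capitals, in 3 genes with large falls and in 3 with small or no change. They are 30 bases each, read 5′ to 3′ on the strand of the gene, from chr12:93467511-93467540 (plus strand), chr9:101398577-101398606 (minus), chr15:88467362-88467391 (minus), chr6:43687764-43687793 (minus), chr7:43869480-43869509 (minus) and chr5:44808949-44808978 (plus), in the order listed.
MRPL42: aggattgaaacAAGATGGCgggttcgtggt
MRPL50: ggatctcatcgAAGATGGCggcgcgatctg
MRPL46: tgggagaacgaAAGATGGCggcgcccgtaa
MRPS18A: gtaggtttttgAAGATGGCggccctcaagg
MRPS24: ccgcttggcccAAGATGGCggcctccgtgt
MRPS30: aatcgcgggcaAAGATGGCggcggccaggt

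The same letters thus occur beside log2 fold changes of -1.46 (MRPL42), -1.41 (MRPL50), -1.41 (MRPL46), -0.34 (MRPS18A), -0.15 (MRPS24) and -0.05 (MRPS30). Of the 20 genes with the YY1 letters 18 were called lower (median log2 fold change -0.86), and of the 50 without them 41 were (median -0.56). For the ETS letters the counts were 9 of 11 with them (median -0.70) and 50 of 59 without them (median -0.67).

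The 120 bases just before the start are shown for 3 genes that carry the NRF1 or the ETS letters (capitals) and for MRPS15, the gene with the deepest fall, whose window held none of the 3 motifs. They come from chr11:6683341-6683460 (minus strand), chr5:154940953-154941072 (plus), chr3:131502972-131503091 (minus) and chr1:36464385-36464504 (minus).
MRPL17: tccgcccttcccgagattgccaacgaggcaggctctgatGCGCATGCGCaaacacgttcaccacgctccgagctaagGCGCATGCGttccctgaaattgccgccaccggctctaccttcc
MRPL22: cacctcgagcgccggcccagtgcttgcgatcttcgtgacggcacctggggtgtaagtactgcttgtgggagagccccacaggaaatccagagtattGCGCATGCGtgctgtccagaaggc
MRPL3: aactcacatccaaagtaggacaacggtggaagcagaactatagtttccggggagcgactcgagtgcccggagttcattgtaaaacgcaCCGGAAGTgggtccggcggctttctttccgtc
MRPS15: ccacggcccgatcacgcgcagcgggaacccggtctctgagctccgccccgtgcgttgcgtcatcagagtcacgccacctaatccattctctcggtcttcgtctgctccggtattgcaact

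MRPL17 has the NRF1 letters at 2 places and MRPL22 at 1, while MRPL3 has the ETS letters. Their log2 fold changes were -0.97, -0.83 and -0.82.

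The calls of the factors that bind these motifs depended on the processing. YY1 had 150 and 151 CPM in C4-2-ENZ, against 142 and 140 CPM in C4-2-CON, and was not called (log2 fold change 0.09, edgeR adjusted p = 0.0631). It was called higher under scaling to total counts (0.28, edgeR adjusted p = 6.06e-05) and with DESeq2 size factors (0.10). The same call was made without a count filter (0.19) and by the DESeq2 test (0.15). Without C4-2-CON replicate 1 its value was 0.10, and without C4-2-CON replicate 2 it was 0.09. YY1 was called lower after correction for transcript length and GC (-0.12, edgeR adjusted p = 0.00356). NRF1, a nuclear activator of genes for mitochondria, was higher (21.2 and 20.4 CPM in C4-2-ENZ, against 17.2 and 18.9 CPM in C4-2-CON; 0.21, edgeR adjusted p = 0.0166), but was not called after that correction (0.14, edgeR adjusted p = 0.0591), with the 1 CPM filter (0.16), by the DESeq2 test (0.27), or without C4-2-ENZ replicate 1 (0.19) or C4-2-CON replicate 1 (0.15). GABPA, the DNA-binding subunit of GABP, was lower (57.3 and 56.1 CPM in C4-2-ENZ, against 70.0 and 62.4 CPM in C4-2-CON; -0.22, edgeR adjusted p = 0.00327), and was not called under scaling to total counts (-0.03), after correction for length and GC (-0.01), without a count filter (-0.13) or by the DESeq2 test (-0.16).

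Among the large-subunit genes with the deepest falls were proteins found only in mitochondria and 1 with a bacterial counterpart. MRPL42 (ENSG00000198015, chr12:93467488-93516213, plus strand) encodes a mitochondria-specific protein and had 114 CPM in both C4-2-ENZ libraries, against 318 and 307 CPM in C4-2-CON. Its log2 fold change was -1.46 ± 0.04 (SE; edgeR adjusted p = 6.39e-11). MRPL50, also mitochondria-specific, had 47.6 and 48.7 CPM in C4-2-ENZ, against 126 and 130 CPM in C4-2-CON (-1.41 ± 0.04; edgeR adjusted p = 1.84e-10). In both genes each C4-2-ENZ library lay far below each C4-2-CON library.

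MRPL58, once named ICT1, belongs to the release factor family and acts as a peptidyl-tRNA hydrolase that frees stalled chains as well as being built into the large subunit. It had 45.5 and 47.0 CPM in C4-2-ENZ, against 120 and 126 CPM in C4-2-CON (-1.41 ± 0.05; edgeR adjusted p = 2.77e-10). MRPL46 had 13.5 and 14.1 CPM in C4-2-ENZ, against 36.8 and 36.3 CPM in C4-2-CON (-1.41 ± 0.06). The proteins of both genes sit in the central protuberance, the knob of the large subunit that faces the small one.

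MRPL33, the counterpart of bacterial L33, had 47.1 and 47.8 CPM in C4-2-ENZ, against 124 and 123 CPM in C4-2-CON (-1.38 ± 0.04), and 21.1% of its exonic bases are shared with BABAM2 on the same strand. MRPL39 had 33.1 and 34.4 CPM in C4-2-ENZ, against 82.0 and 83.0 CPM in C4-2-CON (-1.29 ± 0.04). All of the 6 genes just described stayed lower after correction for transcript length and GC, with log2 fold changes of -1.50 (MRPL42), -1.08 (MRPL50), -1.26 (MRPL58), -1.43 (MRPL46), -1.03 (MRPL33) and -0.91 (MRPL39).

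The deepest fall of the whole set was in the small subunit. MRPS15 (ENSG00000116898, chr1:36455718-36464437, minus strand), the counterpart of a bacterial protein that binds early to the ribosomal RNA of the platform, had 83.5 and 83.6 CPM in C4-2-ENZ, against 283 and 282 CPM in C4-2-CON. Its log2 fold change was -1.76 ± 0.04 (SE; edgeR adjusted p = 1.61e-11), so its level was 3.38-fold higher in C4-2-CON. MRPS33, a mitochondria-specific protein of the head, had 113 and 115 CPM in C4-2-ENZ, against 303 and 302 CPM in C4-2-CON (-1.40 ± 0.04; edgeR adjusted p = 6.59e-11). The 2 libraries of each group nearly coincided, and the groups were far apart.

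MRPS23 had 69.8 and 68.1 CPM in C4-2-ENZ, against 155 and 160 CPM in C4-2-CON (-1.19 ± 0.04). MRPS36 had 23.0 and 25.2 CPM in C4-2-ENZ, against 47.8 and 47.4 CPM in C4-2-CON (-0.98 ± 0.06), and after correction for length and GC its value was -0.55. MRPS12, whose bacterial counterpart lies at the decoding centre and carries streptomycin resistance mutations, had 42 and 40 CPM in C4-2-ENZ, against 68.3 and 83.5 CPM in C4-2-CON (-0.89 ± 0.08). The C4-2-CON libraries of MRPS12 stood apart from each other, yet both lay above both C4-2-ENZ libraries.

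MRPS18 is encoded by 3 genes in humans. MRPS18C, the counterpart of the bacterial platform protein, had 15.3 CPM in both C4-2-ENZ libraries, against 33.2 and 32 CPM in C4-2-CON (-1.09 ± 0.06; edgeR adjusted p = 1.57e-08). MRPS18B, which sits elsewhere in the small subunit, had 94.1 and 91.2 CPM in C4-2-ENZ, against 119 and 125 CPM in C4-2-CON (-0.40 ± 0.04). MRPS18A, whose protein is part of the large subunit in spite of its name, had 18.5 and 20.0 CPM in C4-2-ENZ, against 24.9 and 23.9 CPM in C4-2-CON (-0.34 ± 0.06). All 3 were lower with no overlap between groups, although reads of MRPS18C and MRPS18A may include reads of opposite-strand genes (ABRAXAS1 over 40.2% and RSPH9 over 47.0% of exonic bases), since the strand setting of the counting was not given in the sources used here.

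**Figure D2:**
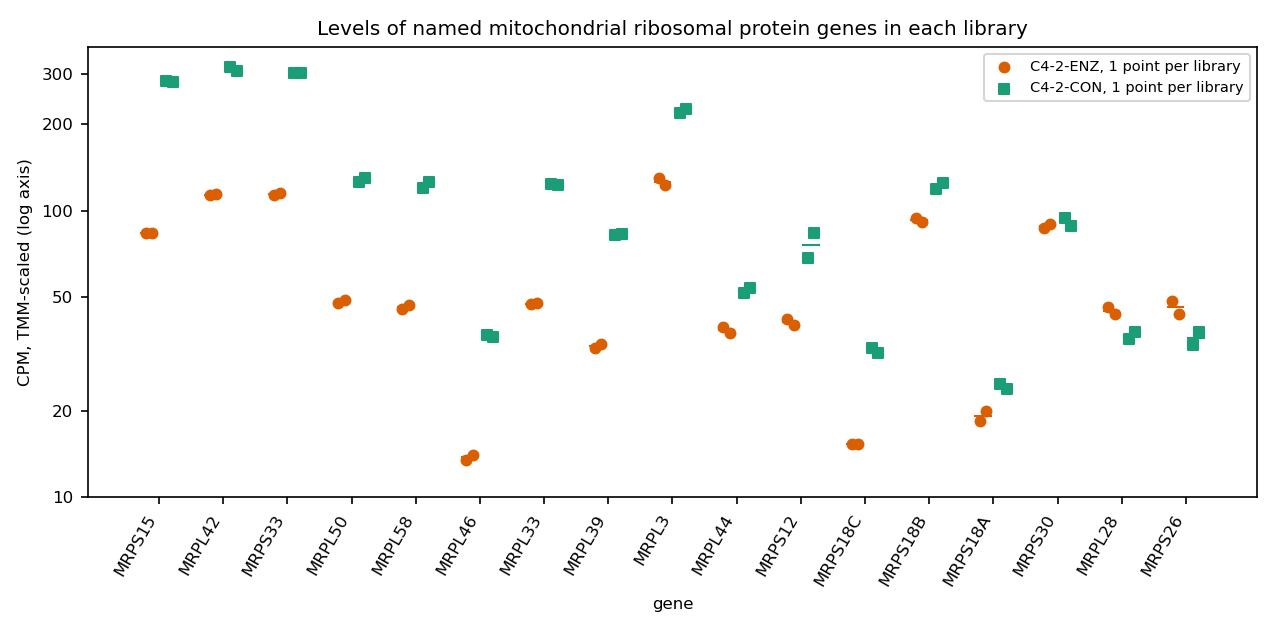
CPM in each library, on a log axis, of 17 genes named in the text, with C4-2-ENZ (circles) left of C4-2-CON (squares) and group means as short lines. Many of these genes were named for large changes without overlap between groups, so the figure does not show how common such gaps are. The C4-2-ENZ points overlap the C4-2-CON points in MRPS30, lie above them in MRPL28 and MRPS26 and lie below them in the others. MRPS15 stands at 83.5 and 83.6 CPM in C4-2-ENZ, against 283 and 282 CPM in C4-2-CON.

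Only 2 members were called higher. MRPS26 (ENSG00000125901, chr20:3045945-3048254, plus strand), a mitochondria-specific small-subunit protein, had 48.4 and 43.6 CPM in C4-2-ENZ, against 33.9 and 37.8 CPM in C4-2-CON (0.36 ± 0.07; edgeR adjusted p = 0.000577). MRPL28 (ENSG00000086504, chr16:366969-371289, minus strand), the counterpart of bacterial L28, had 46.0 and 43.7 CPM in C4-2-ENZ, against 35.6 and 37.8 CPM in C4-2-CON (0.29 ± 0.05; edgeR adjusted p = 0.000584). The rises were 1.28-fold and 1.22-fold, and MRPL28 was no longer called after correction for length and GC (0.10, edgeR adjusted p = 0.0603).

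A group of 11 members was not called. MRPS5, a protein near the mRNA entry of the small subunit, had 41.1 and 39.2 CPM in C4-2-ENZ, against 40.4 and 40.7 CPM in C4-2-CON (-0.01 ± 0.05). MRPS34 had 68.1 and 69.1 CPM in C4-2-ENZ, against 66.8 and 67.9 CPM in C4-2-CON (0.03 ± 0.04). MRPL19 had 76.7 and 71.8 CPM in C4-2-ENZ, against 78.7 and 74.3 CPM in C4-2-CON (-0.04 ± 0.05). The libraries of MRPS5 and MRPL19 overlapped between groups, and those of MRPS34 lay close together without overlap.

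MRPL55 had 28.1 and 27.4 CPM in C4-2-ENZ, against 24.5 and 29 CPM in C4-2-CON (0.05 ± 0.07). MRPS30, a large-subunit protein in spite of its symbol, had 87.0 and 90.1 CPM in C4-2-ENZ, against 94.4 and 88.4 CPM in C4-2-CON (-0.05 ± 0.05; edgeR adjusted p = 0.424). None of these 5 genes was called in the fit reported here, but their calls depend on scaling: total counts put MRPL19 at 0.15, MRPL55 at 0.24, MRPS5 at 0.18, MRPS34 at 0.21 and MRPS30 at 0.14, all called higher. After correction for length and GC MRPS5 was called lower (-0.18, edgeR adjusted p = 0.00252) and MRPS30 higher (0.11). MRPL19, MRPL55 and MRPS34 were not called with that correction.

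Ordered by place in the ribosome, a grouping drawn up after the values had been seen, each part held genes called lower. For comparison, 31.7% of all genes were called lower and 33.0% higher. In the central protuberance 7 of 8 genes were called lower (median -0.90), with MRPL55 as the exception. At the rim of the exit tunnel, where MRPL45 helps to anchor the ribosome to the inner membrane, 5 of 6 were called lower (median -0.89), with MRPL23 not called (-0.13). In the head of the small subunit 6 of 8 were called lower (median -0.59), among them MRPS14 (-0.19). After correction for length and GC 4 of the 8 were called lower and 2 higher, MRPS9 (0.21) and MRPS14 (0.11), with a median of -0.24. The correction gave 33.0% of all genes called lower and 30.7% called higher, and 8 genes are too few to set apart from these shares. On the platform 4 of 5 were called lower (median -0.77), with MRPS6 at 0.05 beside MRPS15 at -1.76.

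The stalk is where translation factors dock, and its genes were uneven. MRPL11, at the base of the stalk, had 40.6 and 40.7 CPM in C4-2-ENZ, against 87.9 and 87.4 CPM in C4-2-CON (-1.11 ± 0.04; edgeR adjusted p = 6.65e-10). MRPL10, which carries the MRPL12 copies, had 41.0 and 39.4 CPM in C4-2-ENZ, against 43.4 and 48.3 CPM in C4-2-CON (-0.19 ± 0.06; edgeR adjusted p = 0.0130). MRPL12, the stalk protein that also binds the mitochondrial RNA polymerase, had 14.7 and 12.7 CPM in C4-2-ENZ, against 14.5 and 18.1 CPM in C4-2-CON (-0.26 ± 0.10; edgeR adjusted p = 0.0466).

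MRPL12 was called lower although its libraries overlapped between groups. AC139530.2 shares 68.2% of its exonic bases on the same strand, so its count is uncertain. Neither MRPL10 nor MRPL12 was called under scaling to total counts (-0.0026 and -0.07), without a count filter, by the DESeq2 test, or without C4-2-ENZ replicate 2 or C4-2-CON replicate 2.

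**Figure D3:**
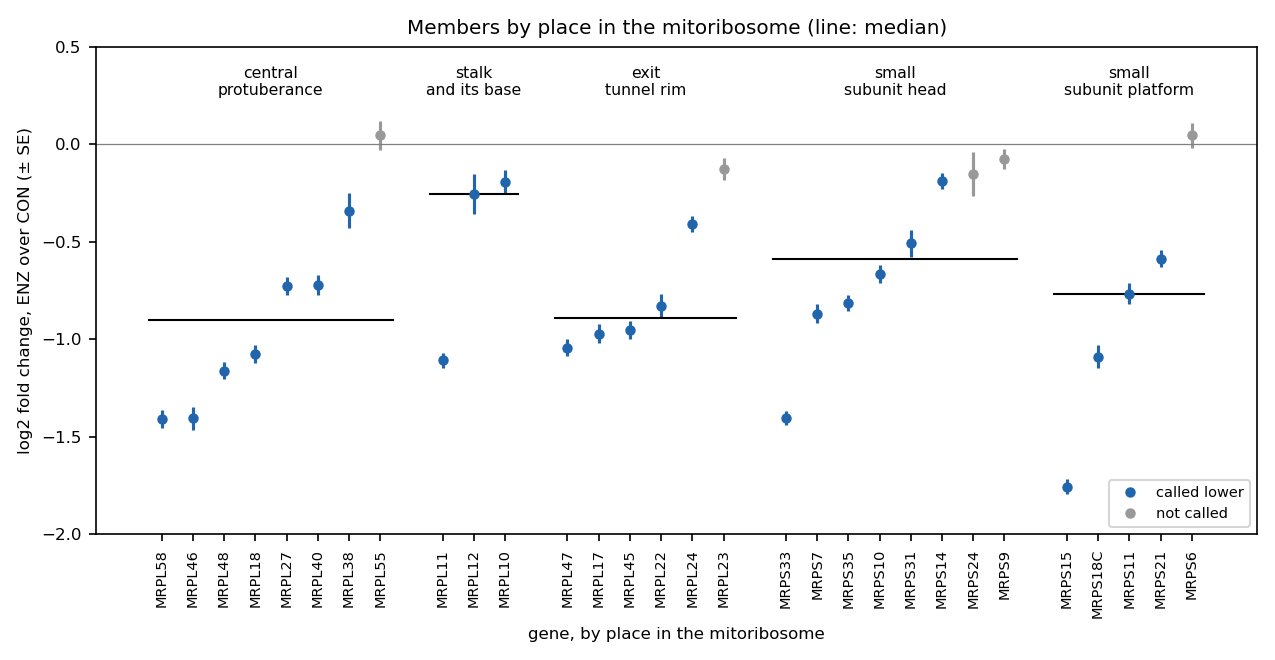
Log2 fold change, C4-2-ENZ over C4-2-CON, with its standard error for genes of 5 parts of the mitoribosome, with the median of each part as a line. Falls reach below -1 in each part, and in 4 of the 5 parts some genes near 0 are not called.

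Transcripts for proteins with bacterial counterparts and for those found only in mitochondria were both mostly lower. In the large subunit by structure, 26 of 30 genes for shared proteins were called lower (median -0.72) and 19 of 21 for mitochondria-specific ones (median -0.85). In the small subunit by structure, 11 of 16 genes for shared proteins (median -0.47) and 8 of 10 for mitochondria-specific ones (median -0.54) were called lower. MRPL3, a shared protein near the peptidyl transferase centre that is mutated in an inherited cardiomyopathy, had 130 and 123 CPM in C4-2-ENZ, against 219 and 227 CPM in C4-2-CON (-0.82 ± 0.04). MRPL44, a mitochondria-specific protein likewise mutated in cardiomyopathy, had 39.3 and 37.6 CPM in C4-2-ENZ, against 51.6 and 53.8 CPM in C4-2-CON (-0.46 ± 0.05). The fall of MRPL44 was smaller than that of MRPL3, and its log2 fold change was -0.18 after correction for length and GC.

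Levels per kilobase of exon spanned a wide range within the set. In the large subunit MRPL57 was highest on that scale in C4-2-ENZ and MRPL51 in C4-2-CON. MRPL57 stood at 83.1 and 82.4 CPM per kb in C4-2-ENZ, against 121 and 122 CPM per kb in C4-2-CON. MRPL51 stood at 71.2 and 70.6 CPM per kb in C4-2-ENZ, against 125 and 131 CPM per kb in C4-2-CON. NCAPD2 on the opposite strand covers 31.3% of the exonic bases of MRPL51. With the strand setting not given, the count of MRPL51 is less certain. In the small subunit MRPS35 was highest, at 69.2 and 66.7 CPM per kb in C4-2-ENZ, against 122 and 117 CPM per kb in C4-2-CON. These 3 abundant transcripts were called lower, with log2 fold changes of -0.55, -0.85 and -0.81.

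At the other end lay MRPL38, at 1.74 CPM per kb in both C4-2-ENZ libraries, against 2.16 and 2.24 CPM per kb in C4-2-CON, and MRPL53, at 2.38 and 2.78 CPM per kb in C4-2-ENZ, against 2.62 and 2.97 CPM per kb in C4-2-CON. In the small subunit MRPS24 was lowest, at 2.14 and 1.90 CPM per kb in C4-2-ENZ, against 2.26 and 2.24 CPM per kb in C4-2-CON. Each of these 3 shares exonic bases with another gene on the same strand (37.5%, 45.2% and 23.2%), and of the 3 only MRPL38 was called lower (log2 fold change -0.34; edgeR adjusted p = 0.00592). That call was lost under scaling to total counts (-0.15), without a count filter (-0.24) and by the DESeq2 test (-0.28). Where HTSeq finds a read in more than 1 gene it can leave it out as ambiguous. Such reads made up 8.05 to 8.07% of assigned or ambiguous records in C4-2-ENZ, against 10.4 to 11.3% in C4-2-CON; their part in these values was not tested.

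Members with much same-strand overlap had a smaller median fall than members free of overlap, and members in between were not compared. Of 7 members that share at least 20% of their exonic bases with a same-strand gene, 4 were called lower (median -0.26). Among these were MRPL33, at -1.38, and the genes lowest per kilobase, MRPL38, MRPL53 and MRPS24. Of 37 members that share none with any gene on either strand, 33 were called lower and 1 higher (median -0.83). The files hold 74 pseudogenes of the set, and 37 of them had any count, together 0.214 to 0.248% of the members' counts in C4-2-ENZ and 0.218 to 0.221% in C4-2-CON. Reads can be split between a gene and its copies, and the pseudogenes of MRPL53, MRPS17, MRPS31 and MRPL45 reached 16.7%, 14.1%, 14.0% and 10.4% of the parent's count in at least 1 library, so these genes are less certain.

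Base composition also moved with the fold change. Across the 78 genes, which share the same 4 libraries, Spearman's rho between exonic GC content and log2 fold change was 0.37, and it was 0.10 after the correction for length and GC; rho with exonic length was -0.02. Of 28 genes under 45% GC, 23 were called lower (median -0.82), of 32 genes from 45 to 55% GC, 29 were (median -0.65), and of 18 genes with 55% GC or more, 13 were called lower and 2 higher (median -0.34). MRPS26 and MRPL28 belong to the last of these groups, at 63.4% and 62.5% GC.

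The correction took each library's smooth trend with exonic length and GC out of the counts of all genes. With it 64 members were called lower and 6 higher (median -0.57), against 33.0% of all genes called lower and 30.7% called higher. The 6 were all MRPS genes: MRPS26, MRPS6, MRPS9, MRPS14, MRPS28 and MRPS30. The MRPL genes had 44 called lower and none higher (median -0.70), and the MRPS genes 20 called lower (median -0.32).

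**Figure D4:**
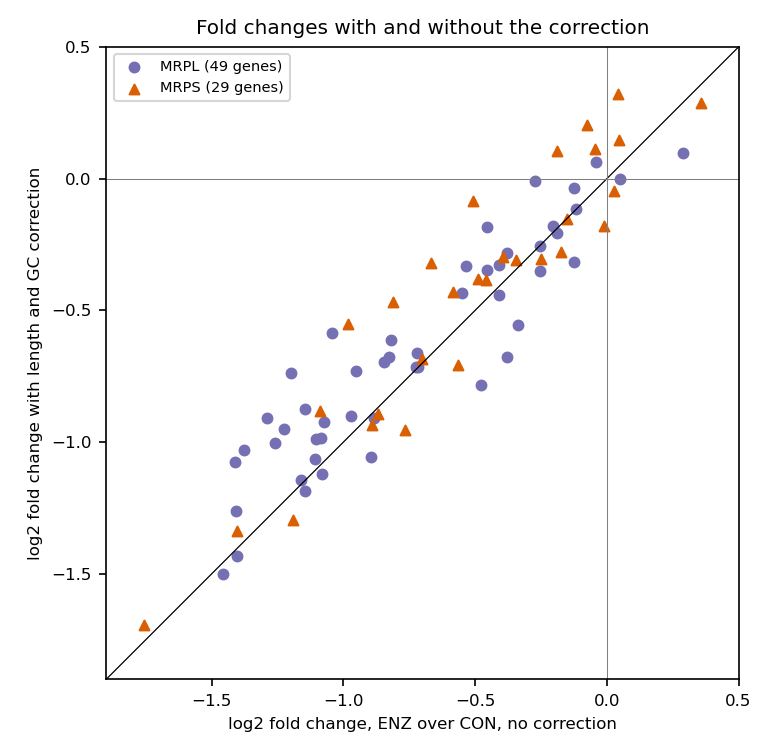
Log2 fold change, C4-2-ENZ over C4-2-CON, of the 49 MRPL genes (circles) and 29 MRPS genes (triangles), with the length and GC correction on the vertical axis and without it on the horizontal axis; the diagonal marks equal values. Most genes lie below 0 on both axes, and the 6 called higher with the correction are all triangles.

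Scaling to total counts raised the all-gene median log2 fold change by 0.19. It left 55 members called lower and 9 called higher (median -0.44), against 23.4% of all genes called lower and 42.4% called higher. Called lower in the fit reported here and in all of 12 alternative fits were 54 members, 37 MRPL and 17 MRPS genes.

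The 2 ribosomal RNAs of the mitoribosome, looked at after the protein values were known, did not move together. MT-RNR1, the 12S RNA of the small subunit, had 1319 and 1502 CPM in C4-2-ENZ, against 5749 and 3096 CPM in C4-2-CON (log2 fold change -1.65 ± 0.20; edgeR adjusted p = 1.72e-05). MT-RNR2, the 16S RNA of the large subunit, had 4512 and 5292 CPM in C4-2-ENZ, against 7179 and 4081 CPM in C4-2-CON (-0.20 ± 0.18; edgeR adjusted p = 0.355). The C4-2-CON libraries differed widely in both RNAs, by more, relative to their mean, than in any MRPL or MRPS gene named above. Without C4-2-CON replicate 1 the value of MT-RNR2 was 0.27 and was called higher, and without C4-2-CON replicate 2 it was -0.54 and was called lower; MT-RNR1 was lower in both, at -1.13 and -2.02.

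Whether libraries were made by poly(A) selection or by depletion of ribosomal RNA was not given in the sources used here, and either step can set the level of these RNAs. Valine tRNA, MT-TV, which is built into the large subunit, had at most 3 counts in a library and was not tested.

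Genes that serve the mitoribosome did not fall as a block. Among all genes tested, 31.7% were called lower and 33.0% higher. Those shares were 23.4% and 42.4% under scaling to total counts, and 33.0% and 30.7% after correction for length and GC. Of the 5 genes for further ribosomal proteins without an MRP symbol, 3 were called lower and none higher (median -0.23). PTCD3 had 127 CPM in both C4-2-ENZ libraries, against 219 and 216 CPM in C4-2-CON (-0.78 ± 0.04), and CHCHD1 had 45.9 and 45.1 CPM in C4-2-ENZ, against 75.6 and 76.6 CPM in C4-2-CON (-0.74 ± 0.04). DAP3, the GTP-binding protein of the small subunit, had 107 and 106 CPM in C4-2-ENZ, against 103 CPM in both C4-2-CON libraries (0.05, edgeR adjusted p = 0.328), but it was called higher under scaling to total counts (0.24).

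Translation factors had 8 of 13 called lower and 1 higher (median -0.18). Under scaling to total counts 5 were called lower and 3 higher (median 0.01), and after correction for length and GC 5 were called lower and 1 higher (median -0.06); 5 were also called lower without a count filter and by the DESeq2 test. MTRF1, a release factor, had 12.2 and 11.2 CPM in C4-2-ENZ, against 26.1 and 26.6 CPM in C4-2-CON (-1.17 ± 0.07), and MRRF, which recycles the ribosome, had 56.9 and 57.6 CPM in C4-2-ENZ, against 108 CPM in both C4-2-CON libraries (-0.92 ± 0.04). C12orf65 (MTRFR), which rescues stalled ribosomes, was higher, at 36.3 and 32.9 CPM in C4-2-ENZ, against 29.5 and 28.5 CPM in C4-2-CON (0.26 ± 0.06), but was not called after correction for length and GC (0.01) or without C4-2-ENZ replicate 1 (0.19). The elongation factor TUFM was not called, at 222 and 218 CPM in C4-2-ENZ, against 204 and 211 CPM in C4-2-CON (0.08), but it was called higher under scaling to total counts (0.27), without a count filter (0.18), by the DESeq2 test (0.14) and without C4-2-CON replicate 2 (0.12).

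Assembly and rRNA modification factors had 12 of 28 called lower and 9 higher (median 0.02), against 31.7% and 33.0% of all genes. Under scaling to total counts 11 were called lower and 15 higher (median 0.21), and after correction for length and GC 11 were called lower and 8 higher (median -0.07). NDUFAB1, the mitochondrial acyl carrier protein that joins an assembly module of the large subunit and is also part of complex I, fell by the most (log2 fold change -1.32; edgeR adjusted p = 2.85e-10). FASTKD2, which binds the 16S RNA, was also lower (-0.81). NGRN, which helps to keep the 16S RNA stable (0.41), and the GTPase MTG2 (0.51) were higher.

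Mitochondrial aminoacyl-tRNA synthetases and the subunits of the glutamyl-tRNA amidotransferase had 9 of 20 called lower and 5 higher (median -0.04). The shares of all genes were 31.7% and 33.0%. Scaling to total counts gave 5 lower and 10 higher (median 0.15), against 23.4% and 42.4% of all genes. The correction for length and GC gave 11 lower and 4 higher (median -0.15), against 33.0% and 30.7% of all genes. MARS2, the methionine enzyme (-0.65), and QRSL1, an amidotransferase subunit (-0.56), were lower, and HARS2 (0.29) and AARS2 (0.42), the enzymes for histidine and alanine, were higher. Of 17 genes for mitochondrial transcription and its regulation, 12 were called lower and 2 higher (median -0.40), against 9 lower and 5 higher (median -0.21) under scaling to total counts and 13 lower and 1 higher (median -0.53) after correction for length and GC.

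SLIRP, which stabilises mitochondrial mRNA together with LRPPRC, had 58.9 and 58.3 CPM in C4-2-ENZ, against 183 and 195 CPM in C4-2-CON (-1.69 ± 0.05; edgeR adjusted p = 6.46e-11). MTERF1, which binds a terminator beyond the rRNA genes, was lower as well (-1.11). POLRMT, the mitochondrial RNA polymerase, was higher, at 50.7 and 49.5 CPM in C4-2-ENZ, against 32.2 and 36.6 CPM in C4-2-CON (0.54 ± 0.06), and stood at 0.12 after correction for length and GC.

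**Figure D5:**
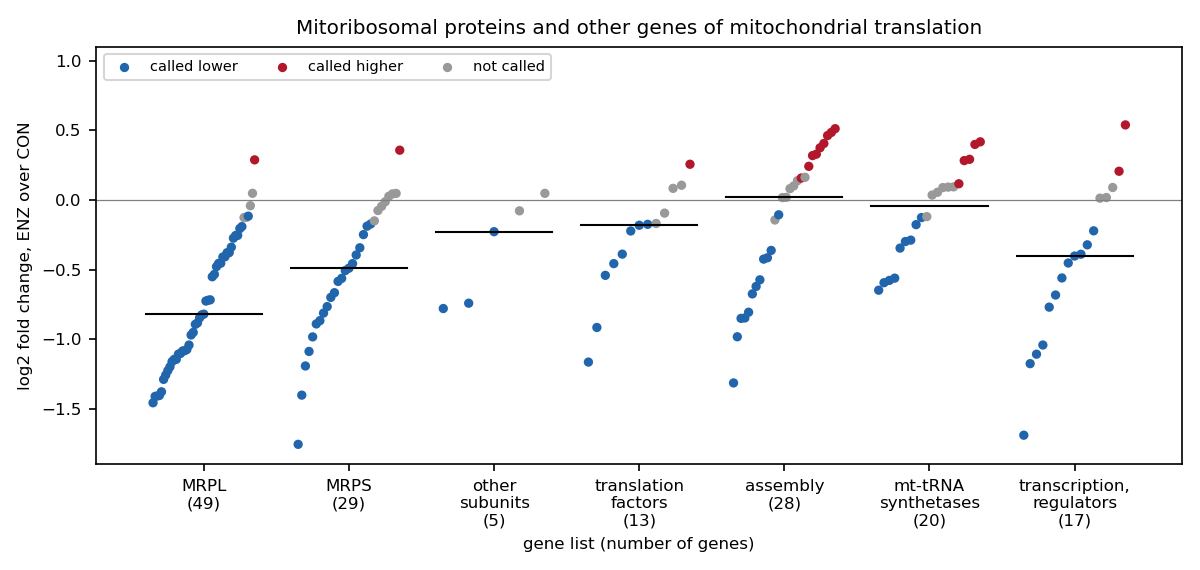
Log2 fold change, C4-2-ENZ over C4-2-CON, of the MRPL and MRPS genes and of 5 lists of genes for mitochondrial translation, with the median as a line. The MRPL and MRPS medians are -0.82 and -0.49; the medians of translation factors and synthetases turn positive under total count scaling, and that of assembly factors turns negative after length and GC correction.

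Many members share a start region with a gene read the other way. Within 1000 bases, 29 members had such a neighbour, giving 30 pairs, and 28 of the neighbours were tested: 15 were called lower, 6 higher and 7 were not called (median -0.30). Only protein-coding neighbours were taken, and of the protein-coding genes tested 31.4% were called lower and 42.3% higher (median 0.09). Of all genes tested, 31.7% were called lower and 33.0% higher. MRPL46 and MRPS11 face each other with starts 34 bases apart, 1 protein for each subunit, and both fell (-1.41 and -0.77); they count in both directions. MRPL18 and TCP1, a subunit of the cytosolic chaperonin, start 63 bases apart and fell alike (-1.07 and -1.02), and MRPL47 and NDUFB5, a subunit of complex I, start 36 bases apart and both fell (-1.04 and -1.55).

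In 6 pairs the member was called lower and its neighbour higher. IGHMBP2, whose start lies 7 bases from that of MRPL21, had 21.1 and 22.9 CPM in C4-2-ENZ, against 15.2 and 16.5 CPM in C4-2-CON (log2 fold change 0.47; edgeR adjusted p = 0.000102), beside -1.08 for MRPL21. After correction for length and GC IGHMBP2 was not called (0.14). ZNF189, 259 bases from MRPL50, was at 0.37 beside -1.41. The other 4 pairs were MRPL11 with PELI3, MRPL14 with TMEM63B, MRPL41 with PNPLA7 and MRPL43 with TWNK, the mitochondrial DNA helicase. In the pairs of MRPL11, MRPL14 and MRPL43 the spans of both genes, introns included, overlap on opposite strands. Opposite-strand genes cover 4.69% of the exonic bases of MRPL11 (PELI3) and 36.9% of those of MRPL43 (SEMA4G and TWNK). With the strand setting of the counting not given, the counts of the MRPL11 and MRPL43 pairs are less certain. The pairs were chosen for display after their values were seen.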

How the data were processed

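Total RNA of 4 C4-2 libraries was sequenced. The authors deposited raw read counts per gene, 1 table per library; per the submitters' processing notes, STAR 2.5.2b aligned the reads to GRCh38 (hg38) and HTSeq counted them. For HTSeq, its version, mode, strand setting and annotation were not given in the sources used here. Rows that name no gene (5 per table) held 55.4% and 56.9% of records in C4-2-ENZ and 74.4% and 71.1% in C4-2-CON and were left out.

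Identifiers were matched to GENCODE 29 (56753 of 60483). All genes were filtered with filterByExpr (minimum count 10), scaled by TMM and put through edgeR 4.0.16, quasi-likelihood F test (R 4.3.3; 4 libraries, group only, 2 residual degrees of freedom; Benjamini-Hochberg over 20325 genes; called below 0.05). A standard error is the size of the log2 fold change over the square root of F. CPM use TMM-scaled library sizes; n = 2 a group. The step was tested on simulated counts. Alternatives were DESeq2 1.42.0 (size factors, and its own test), total count scaling, other filters, offsets for exonic length and GC fitted with mgcv 1.9.3, a replicate block and leaving out each library. Replicates differed beyond sampling noise (chi-square per degree of freedom 2.38 in C4-2-ENZ and 5.67 in C4-2-CON), so each counted as 1.

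The members and lists were chosen with earlier results of these data known. Genes named were, in each subunit, the 6 called with the deepest falls and up to 4 with the largest rises among those without overlap, the 2 highest and 2 lowest per kilobase, and the 2 nearest 0; 12 more over both, chosen for their role; and from each list, the 2 called with the smallest adjusted p in each direction. Other genes named were chosen after their values were seen. Promoter windows and sequences are from RefSeq (GRCh38.p14). Intervals and p-values cover these libraries only.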

Additional observations from a re-analysis of the deposited data

How the results depend on the processing

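Counts of members called lower stayed within 1.5 times those reported under every alternative. Members called higher were 9 under total count scaling (3 MRPL, 6 MRPS), 6 with the length and GC correction (0 MRPL, 6 MRPS) and 5 with the replicate block and that correction (0 MRPL, 5 MRPS); leaving out 1 library gave 1 to 2 MRPL genes called higher, 2 of them without C4-2-CON replicate 2. The MRPL median of -0.82 was -0.63 when scaled to total counts, -0.72 with no filter, -0.87 with the 1 CPM filter, -0.70 when corrected for length and GC, -0.70 with the block added to that, -0.76 by the DESeq2 test, -0.73 by structure and -0.84 to -0.76 with 1 library left out. The MRPS median of -0.49 was -0.30, -0.32 and -0.32 under total count scaling, the correction, and the block with the correction. The log2 of the large to small ratio in C4-2-ENZ over that in C4-2-CON was -0.10, and -0.057 by structure. In sign, 10 members turned positive under total count scaling: MRPL20 (0.072), MRPS14 (0.00019), MRPS2 (0.016), MRPL19 (0.15), MRPS30 (0.14), MRPS5 (0.18), MRPL53 (0.06), MRPL23 (0.06), MRPS24 (0.04) and MRPS9 (0.11). With the length and GC correction 4 turned positive, MRPS14 (0.105), MRPS9 (0.21), MRPS30 (0.11) and MRPL19 (0.06), all 4 likewise with the block, and 2 turned negative, MRPL55 (-0.00058) and MRPS34 (-0.05). YY1 was at -0.12 with the correction, alone and with the block; MT-RNR2 ranged from -0.54 to 0.27 with 1 library left out. The cause was not tested. Of 936 values of single members under the 12 alternatives, 841 kept both their direction and their side of the threshold. Same-numbered libraries did not deviate together (r = -0.02 over 20325 genes). The labels do not say what a replicate number marks, and this correlation cannot tell whether same-numbered libraries share a culture or preparation. The replicate block left 64 members called lower (43 MRPL, 21 MRPS) and 2 higher, with medians of -0.82 and -0.49. With the block 13091 genes were called in all, against 13148. The large to small ratio is taken within a library and was not given a block. Genes at a few CPM (MRPL53, MRPS24) have the widest errors, and 2 libraries a group limit every p-value.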
